A study of Mus musculus with 8 samples.

Results

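A set of 9 chemokine genes was followed in whole mouse retina during rod photoreceptor degeneration. The genes were chosen by symbol, namely Ccl2, Ccl3, Ccl4, Ccl5, Ccl12, Cxcl9, Cxcl10, Cxcl16 and Cx3cl1, and are 9 of the 57010 gene identifiers in the count table. No expression threshold entered the choice, and all 9 passed the filter on low counts, some only through the libraries where they were high. The mRNA of whole retina was sequenced in 4 groups of 2 libraries, which the submitters describe as biological replicates. A library is called a retina below. The groups were wild-type (WT) retina at postnatal day 15 (P15) and rd10 retina at P15, P18 and P21. WT retina was sampled at P15 alone, so that in the comparisons of P18 and P21 rd10 retina with WT the genotype and the age cannot be told apart. According to the study's methods rd10 mice were homozygous for a mutation in the rod phosphodiesterase gene Pde6b, and the WT mice were littermates. No other allele or agent is named for these groups.

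Chemokines are small proteins that guide leukocytes along a concentration gradient and act through G protein-coupled receptors on the responding cell. CCL2 and CCL12 are ligands of CCR2, a receptor of inflammatory monocytes. CCL3, CCL4 and CCL5 attract monocytes, macrophages and T cells, with CCL3 and CCL5 acting on CCR1, while CXCL9 and CXCL10 are interferon-induced ligands of CXCR3 on activated T cells and natural killer cells. CXCL16 and CX3CL1 differ from the other members in being made as transmembrane proteins with the chemokine domain on a stalk, from which proteases release it. In the retina and brain CX3CL1 is made by neurons, and its receptor CX3CR1 is carried by microglia.

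Total counts per library lay between 28076947 and 33724562, and levels are given as CPM, counts scaled to library size with TMM factors of 0.937 to 1.06. Replicates differed by more than sampling of reads gives, the chi-square per gene being lowest between the rd10 P15 retinas (24.5) and highest between the rd10 P18 retinas (103). Y-linked genes and Xist also differed between replicates. The summed counts of 4 Y-linked genes were 5530 and 6054 at rd10 P15, 6011 and 19 at P18 and 7193 and 3 at P21, against 4 and 12 in WT. Xist had 44 and 77008 counts at P18 and 72 and 80032 at P21. Sex and genotype therefore cannot be told apart at P15. At P18 and P21 replicate 1 had the Y-linked reads and replicate 2 the Xist reads. Differences between the replicates of these groups therefore cannot be told apart from sex. The part of sex in the results below was not tested. Whole retina was sequenced, so that a change in the number of cells of a type and a change in the RNA per cell cannot be told apart.

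The members were first placed on the genome (GRCm38, GENCODE M21). The CC ligands lie on chromosome 11, with Ccl2 at chr11:82035571-82037453 and Ccl12 at chr11:82101845-82103400 on the plus strand, 64.39 kb apart. Ccl3 lies at chr11:83647844-83649355 on the minus strand and Ccl4 at chr11:83662584-83664683 on the plus strand, 13.23 kb apart, and Ccl5 at chr11:83525778-83530518. Cxcl9 at chr5:92321347-92328079 and Cxcl10 at chr5:92346638-92348889 are 18.56 kb apart on the minus strand of chromosome 5. Cxcl16 lies at chr11:70453983-70459984 and Cx3cl1 at chr8:94772009-94782427. Cxcl10 overlaps Art3 on the opposite strand, which had 22 to 96 counts per library, and Cxcl16 overlaps Zmynd15, which had 38 to 152. Without strand information the reads of such pairs cannot be told apart. Ccl2 overlaps the gene model Gm17268 on the opposite strand, which had 0 counts in every library.

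Promoter windows of 250 bases before the RefSeq start (GRCm38.p6) were on hand for 5 of the 9 members, Ccl3, Ccl12, Cxcl9, Cxcl10 and Cx3cl1. They were searched on both strands for a core of the interferon-stimulated response element, spelled as GAAA, any 2 bases and GAAA, and for the NF-kappaB motif. The windows shown are that of Ccl12, the member that passed the test at P18, and that of Cxcl10, the member with the highest CPM among the secreted chemokines at P18. Capitals mark the motif matches.
Ccl12, chr11:82101595-82101844, plus strand: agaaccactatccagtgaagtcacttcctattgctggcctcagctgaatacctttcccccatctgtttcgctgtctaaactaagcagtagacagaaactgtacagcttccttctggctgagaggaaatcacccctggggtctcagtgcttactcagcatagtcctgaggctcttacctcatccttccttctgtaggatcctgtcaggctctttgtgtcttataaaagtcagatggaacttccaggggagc
Cxcl10, chr5:92348890-92349139, minus strand: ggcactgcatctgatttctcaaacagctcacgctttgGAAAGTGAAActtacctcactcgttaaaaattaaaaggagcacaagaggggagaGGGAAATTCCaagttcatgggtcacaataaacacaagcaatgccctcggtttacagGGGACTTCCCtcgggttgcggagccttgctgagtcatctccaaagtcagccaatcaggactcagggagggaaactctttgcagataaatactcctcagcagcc
The Cxcl10 window held GAAAGTGAAA from position -213 to -204, counted from the gene start, and 2 NF-kappaB matches, GGGAAATTCC from -159 to -150 and GGGACTTCCC from -103 to -94. These 3 matches overlap neither each other nor another motif searched. The other 4 windows held no match of either motif. Among 32851 promoter windows of the same length, 2.98% held the interferon motif and 3.9% the NF-kappaB motif. A match describes the letters of a window and is not a measured binding site.

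The ligands of CCR2 were absent or nearly so before P18. Ccl2 had 0 counts in both WT and both rd10 P15 retinas, 582 and 155 counts in the 2 rd10 P18 retinas, and 42 and 3 counts at P21. In CPM these were 17.4 and 4.88 at P18, and 1.20 and 0.105 at P21. Every retina at P18 was thus above every retina of the other groups, with 3.56 times as much in replicate 1 as in replicate 2. Ccl12, the mouse paralog of Ccl2 64.39 kb away, had 6 and 6 counts in WT, 0 and 0 at rd10 P15, 278 and 122 at P18, and 20 and 6 at P21. In CPM, Ccl12 stood at 0.222 and 0.194 in WT, 8.29 and 3.84 at P18, and 0.571 and 0.210 at P21. The P18 values again stood clear of all other groups, and those at P21 were back near the WT level.

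Between rd10 P18 and WT, Ccl12 was 29.2-fold higher by group means and rose with a log2 fold change of 4.84 (SE 0.78, n = 2 and 2, edgeR quasi-likelihood adjusted p = 0.0340). It was the only member that passed the call rule, an adjusted p under 0.05 with an absolute log2 fold change over 1. The call rested on single libraries, since the adjusted p was 0.217 without WT replicate 1, 0.159 without WT replicate 2 and 0.135 without rd10 P18 replicate 1. Ccl2 was at least 215-fold higher at P18 than in WT, taking a floor of 3 counts over the WT group, and its edgeR adjusted p of 0.0951 did not pass. Floors cover counting error alone. DESeq2, the tool of the study, called Ccl2 (adjusted p = 0.00224), Ccl12 (3.25e-06) and Ccl4 (0.0431) in this comparison.

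The pair Ccl3 and Ccl4, and Ccl5, had lower levels. Ccl3 was detected in WT retina with 11 and 16 counts, had 21 and 0 counts at rd10 P15, 210 and 83 at P18, and 20 and 7 at P21. Ccl4 had 0 and 4 counts in WT, 0 and 0 at rd10 P15, 53 and 88 at P18, and 6 and 0 at P21. Both genes were higher at P18 than in any retina of the other groups, but they ranked the P18 retinas in opposite order. Per kilobase of exon, Ccl3 was 3.41 times Ccl4 in P18 replicate 1 and 0.813 times Ccl4 in replicate 2. The group means of Ccl3 and Ccl4 in CPM were 4.44 ± 2.58 and 2.18 ± 0.842 (SD, n = 2) at P18, against 0.462 ± 0.0788 and 0.0647 ± 0.0915 in WT. The log2 fold changes of 3.25 (SE 1.23) for Ccl3 and 4.95 (SE 1.77) for Ccl4 gave edgeR adjusted p-values of 0.230 and 0.218 and were not called.

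Ccl5, made by T cells, natural killer cells and activated macrophages, had another time course. It had 0 and 7 counts in WT, 0 and 5 at rd10 P15, 88 and 20 at P18, and 98 and 4 at P21. The level at P21 lay in replicate 1 alone, where Ccl5 reached 2.80 CPM against 0.140 CPM in replicate 2. Ccl5 and Cx3cl1 were the members whose highest library was not at P18, and for Ccl5 42.4% of its CPM over the 8 libraries came from P21 replicate 1 and 39.8% from P18 replicate 1. Its log2 fold changes against WT were 3.76 (SE 1.89, edgeR adjusted p = 0.357) at P18 and 3.62 (SE 1.88, adjusted p = 0.514) at P21.

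The ligands of CXCR3 differed widely from each other in level. Cxcl10 had 0 and 63 counts in WT, 0 and 9 at rd10 P15, 1090 and 217 at P18, and 195 and 34 at P21. In CPM, Cxcl10 reached 32.5 and 6.83 at P18, the highest values of any secreted member. WT replicate 2, with 2.04 CPM, lay above P21 replicate 2, with 1.19 CPM, so that WT and P21 overlapped. Cxcl9 had 0 counts in all 4 retinas at P15, 83 and 8 at P18, and 13 and 0 at P21. In each of the 3 retinas with Cxcl9 counts Cxcl10 was the higher of the pair, by 17.6 and 36.3 times per kilobase in the P18 replicates and 20.1 times in P21 replicate 1.

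Neither CXCR3 ligand passed the test at P18. Cxcl10 was 19.3-fold higher than in WT by group means, with a log2 fold change of 4.24 (SE 1.80, edgeR adjusted p = 0.306). Cxcl9 was at least 26.3-fold higher than in WT, at an adjusted p of 0.228. The spread between the P18 retinas was wide, with replicate 1 at 4.76 times replicate 2 for Cxcl10 and 9.82 times for Cxcl9.

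**Figure D1:**
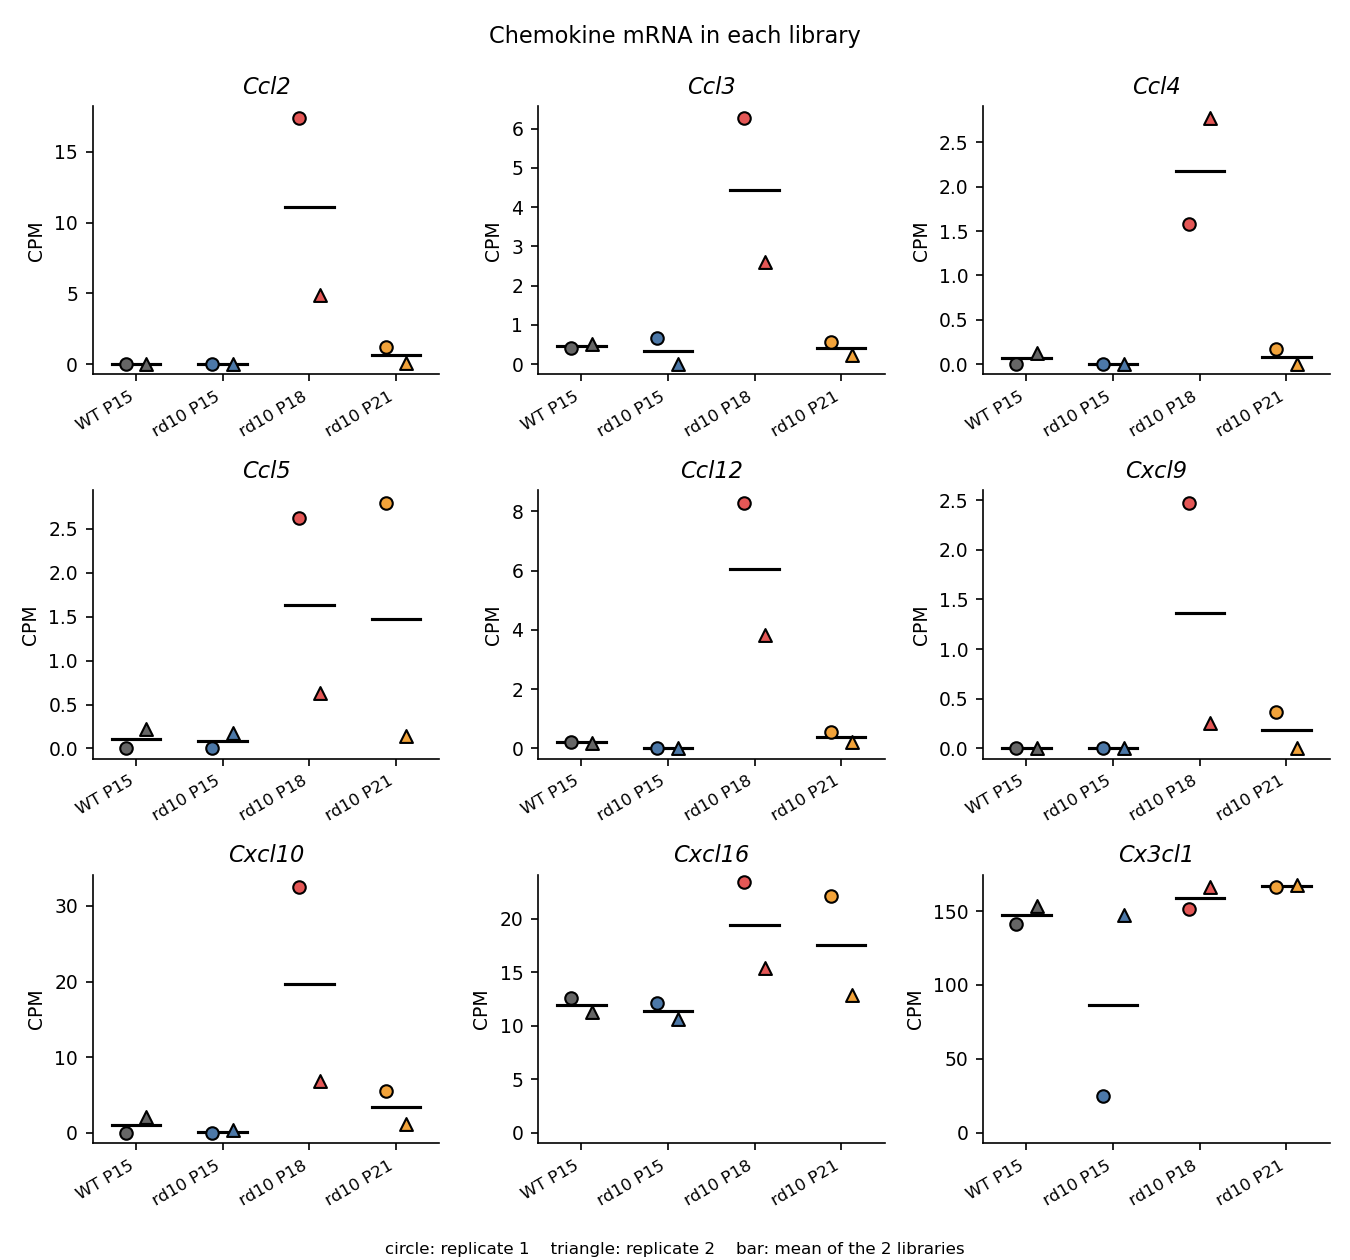
Each panel plots 1 chemokine, with the group on the horizontal axis and CPM on a linear vertical axis that differs between panels. Circles are replicate 1, triangles replicate 2 and bars the mean of the 2 libraries. The 7 secreted chemokines stay at or under 2.04 CPM in all 4 retinas at P15, and Ccl2, Ccl3, Ccl12, Cxcl9 and Cxcl10 peak in P18 replicate 1, while Cx3cl1 lies between 141 and 167 CPM except in rd10 P15 replicate 1, at 24.9.

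The transmembrane chemokines were expressed in every retina. Cxcl16 had 341 and 348 counts in WT, 383 and 303 at rd10 P15, 788 and 490 at P18, and 775 and 370 at P21. Its mean CPM was 11.9 ± 0.944 in WT, 11.4 ± 1.06 at rd10 P15, 19.5 ± 5.70 at P18 and 17.5 ± 6.50 at P21 (SD, n = 2). Both later rd10 ages lay above WT in every retina, by log2 fold changes of 0.71 (SE 0.30, edgeR adjusted p = 0.279) at P18 and 0.56 (SE 0.30, adjusted p = 0.535) at P21. Neither difference was called.

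Cx3cl1 was the most abundant member and varied little from P18 on. It had 3825 and 4747 counts in WT, 784 and 4185 at rd10 P15, 5082 and 5279 at P18, and 5836 and 4793 at P21. In CPM, rd10 P15 replicate 1 stood at 24.9, whereas the other 7 retinas lay between 141 and 167. The log2 fold change between rd10 P15 and WT was -0.78 (SE 0.72, edgeR adjusted p = 0.742) and came to 0.00 without rd10 P15 replicate 1. Without rd10 P15 replicate 2, leaving the low library alone, it was -2.56 at an adjusted p of 0.0107. At P18 and P21 the log2 fold changes against WT were 0.11 (SE 0.71, adjusted p = 0.962) and 0.18.

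Levels were compared between members as CPM per kilobase of exon. In WT retina Cx3cl1 stood at 37.5 ± 2.22 and Cxcl16 at 3.95 ± 0.313 (SD, n = 2), followed by Ccl3 at 0.603, Cxcl10 at 0.453 and Ccl12 at 0.387. Ccl5 and Ccl4 were at 0.118 and 0.0981, and Ccl2 and Cxcl9 at 0. Of the 8 pairs of neighbours in this order 5 overlapped between libraries, and those that did not were Cx3cl1 above Cxcl16, Cxcl16 above Ccl3 and Ccl12 above Ccl5. At rd10 P18 the order was Cx3cl1 (40.4 ± 2.65), Ccl12 (11.3 ± 5.86), Ccl2 (9.77 ± 7.75), Cxcl10 (8.73 ± 8.06), Cxcl16 (6.44 ± 1.89), Ccl3 (5.79 ± 3.37), Ccl4 (3.30 ± 1.28), Ccl5 (1.69 ± 1.47) and Cxcl9 (0.452 ± 0.521). Among the 8 pairs of neighbours in the P18 order, 7 overlapped between libraries, and Cx3cl1 alone stood apart. At P21 the order began with Cx3cl1 at 42.5 and Cxcl16 at 5.80, and Ccl5 at 1.53 and Cxcl10 at 1.50 followed.

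Over all members, the P18 retinas held most of the signal of the secreted chemokines. The summed CPM of the 7 secreted members was 0.628 and 3.11 in WT, 0.668 and 0.493 at rd10 P15, 71.1 and 21.8 at P18, and 11.2 and 1.89 at P21. P18 replicate 1 alone held 73.7% of the CPM of Ccl2 over the 8 libraries, 79.9% of that of Cxcl9, 67.1% of that of Cxcl10, 62.2% of that of Ccl12 and 55.5% of that of Ccl3. Ccl4 had its highest share, 59.6%, in P18 replicate 2, and Ccl5 in P21 replicate 1, as given above. For Cxcl16 the highest share, in P18 replicate 1, was 19.5%.

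**Figure D2:**
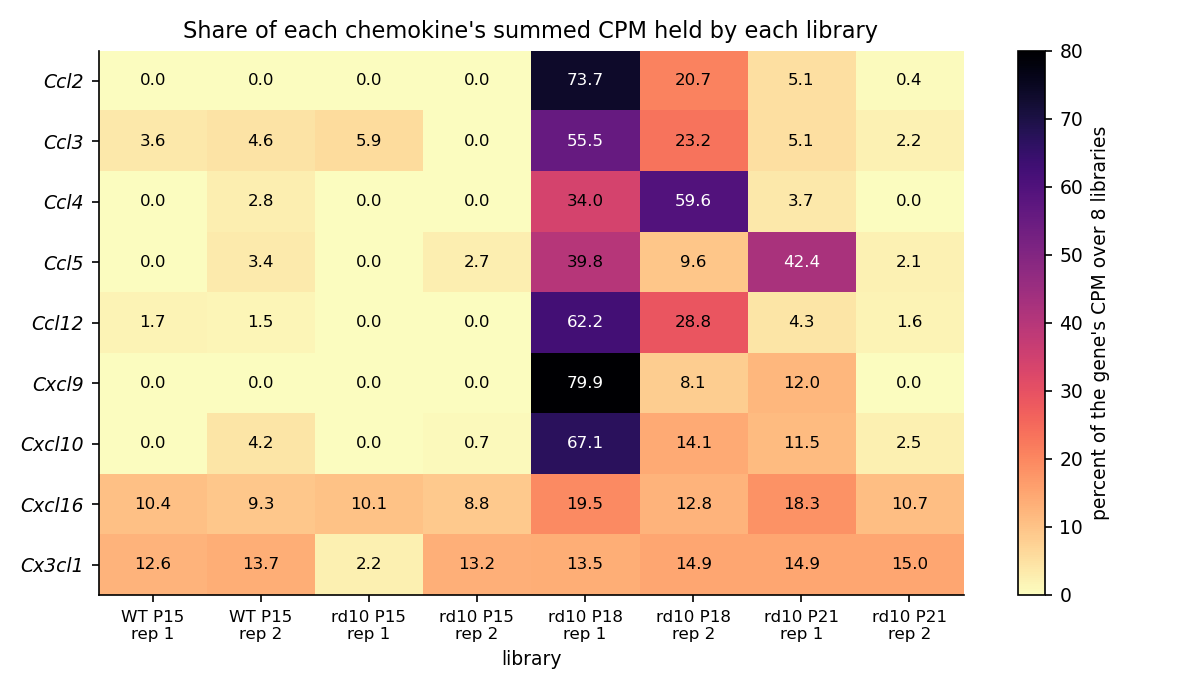
Each cell gives the percent of a chemokine's CPM, summed over the 8 libraries, that 1 library holds, with genes as rows and libraries as columns. Ccl2, Ccl3, Ccl12, Cxcl9 and Cxcl10 have over 50% in P18 replicate 1, Ccl4 is highest in P18 replicate 2, Ccl5 is divided between P18 replicate 1 and P21 replicate 1, and Cx3cl1 is spread evenly apart from 2.2% in rd10 P15 replicate 1.

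Counts over the 9 members were read against all 20457 genes tested. Ccl2, Ccl4, Ccl5, Ccl12 and Cxcl9 reached 10 counts in no more than a single library outside rd10 P18. Without the P18 libraries these genes would not have passed the filter on low counts. Between rd10 P15 and WT edgeR called 0 members, where 0.23% of all genes were called in either direction. DESeq2 also called 0, against 429 of 20287 genes in either direction. A single member, Ccl12, had an unadjusted p under 0.05, against 2523 of all 20457 genes. It was lower at rd10 P15 and was the only member without overlap between groups, against 49.7% of all genes. Its 12 counts over the WT group against 0 make it at least 4.15-fold lower (edgeR adjusted p = 0.167).

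Between rd10 P18 and WT, edgeR called 1 of 9 members higher, against 1.15% of all genes. Of the members 6 had an unadjusted p under 0.05, against 3563 of 20457 genes in either direction. DESeq2 called 3, against 3.51% of all genes. Groups did not overlap for 8 members, all higher at P18 and all but Cx3cl1, against 24.1% of all genes. The median log2 fold change of the members was 4.24, also with Ccl2 and Cxcl9 set at their bounds, against 0.01 over all genes. Ccl2, Ccl4, Ccl5, Ccl12 and Cxcl9 would not have passed the filter without the P18 libraries. The shares and the median therefore describe the members and do not test them. An exact permutation test of 2 retinas against 2 cannot give a p under 0.333 for a single gene.

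Between rd10 P18 and rd10 P15, in which genotype is shared, all 9 members were higher at P18 without overlap, against 21.9% of all genes. EdgeR called 1 member, Ccl12 (at least 121-fold higher, adjusted p = 0.0221), against 0.523% of all genes. Of the members 7 had an unadjusted p under 0.05, against 2638 of 20457 genes in either direction. The call on Ccl12 was lost without rd10 P15 replicate 1 (adjusted p = 0.111), rd10 P15 replicate 2 (0.112) or rd10 P18 replicate 1 (0.0602). DESeq2 called Ccl2, Ccl3, Ccl4 and Ccl12, against 2.33% of all genes. The median log2 fold change of the members was 6.97 as fitted and 4.76 with the 4 genes that had no counts at rd10 P15 set at their bounds. The same limit from the filter on low counts holds here. By group means Cxcl10 was 124-fold higher at P18 than at rd10 P15, with a log2 fold change of 6.97 (SE 2.18, edgeR adjusted p = 0.288). This comparison and that with WT share the P18 libraries.

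At P21 each secreted member had a lower group mean than at P18, by least for Ccl5 (log2 fold change -0.14). Of the members 5, Ccl2, Ccl3, Ccl4, Ccl12 and Cxcl10, were lower at P21 than at P18 without overlap, against 22.0% of all genes. Cx3cl1 hardly differed, at 167 and 167 CPM at P21 against 152 and 166 at P18 (log2 fold change 0.07, SE 0.71, edgeR adjusted p = 0.983). Among the lower members the log2 fold changes were -4.06 (SE 1.24) for Ccl2, -3.42 (SE 1.24) for Ccl3, -4.56 (SE 1.71) for Ccl4 and -3.93 (SE 0.73) for Ccl12. EdgeR called 0 of these, with adjusted p-values of 0.345 for Ccl12 and 0.440 for the other 3, against 0.0147% of all genes called lower. In this comparison 4 members had an unadjusted p under 0.05, against 2219 of 20457 genes in either direction. DESeq2 called Ccl12 (adjusted p = 0.000735), against 0.34% of all genes. The filter on low counts limits this comparison too, since some members passed it only through P18.

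Against WT at P21, edgeR called 0 members, against 0.244% of all genes called higher, with 1 member at an unadjusted p under 0.05. DESeq2 also called 0, against 461 of 20858 genes called higher. Over all genes 2416 of 20457 had an unadjusted p under 0.05 in either direction. Ccl2, Cxcl16 and Cx3cl1 were above WT in both P21 retinas, 3 of 9 members, against 24.9% of all genes. Ccl2 was at least 12.6-fold higher than in WT at P21 (edgeR adjusted p = 0.370), and most of its 45 counts came from replicate 1. Ccl3 and Ccl4 overlapped with WT at P21, and Ccl12 did so with 0.390 ± 0.255 CPM against 0.208 ± 0.0194 (SD, n = 2).

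Receptors of these chemokines were then read, from a list of 18 chemokine receptors of which 12 had counts and 7 could be tested. Ccr1, a receptor of CCL3 and CCL5, was the 1 receptor that edgeR called at P18 against WT, where 6 of the 7 had an unadjusted p under 0.05 and DESeq2 called 5. Over all genes, edgeR called 1.15% and DESeq2 3.51% higher, and 3563 of 20457 had an unadjusted p under 0.05. These shares stand beside each list below at P18 against WT. Ccr1 had 0 counts in all 4 retinas at P15, 98 and 63 at P18, and 32 and 14 at P21, at least 47.4-fold higher at P18 than in WT (edgeR adjusted p = 0.0400). That call was lost without either WT library, rd10 P18 replicate 1 or rd10 P21 replicate 1, with adjusted p-values of up to 0.182.

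Ccr2, the receptor of CCL2 and CCL12, had 3 and 0 counts in WT, 4 and 0 at rd10 P15, 84 and 85 at P18, and 81 and 3 at P21 (P18 against WT, edgeR adjusted p = 0.170). Its counts were alike in the P18 retinas, where those of Ccl2 and Ccl12 were not, and in P21 they lay in replicate 1, as did those of Ccl5. Cxcr3, the receptor of CXCL9 and CXCL10, had 14 counts in P18 replicate 1 and 2 in P21 replicate 1, the same libraries in which Cxcl9 was highest, and 0 elsewhere. Cxcr6, the receptor of CXCL16, had 10 and 7 counts at P18, 2 and 0 at P21 and 0 at P15.

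Cx3cr1, the receptor of CX3CL1 and a microglial gene, had 193 and 212 counts in WT, 299 and 293 at rd10 P15, 676 and 851 at P18, and 264 and 509 at P21. Receptor mRNA was thus 3.36-fold higher at P18 than in WT by group means while that of its ligand was near its WT level. The log2 fold change of Cx3cr1 was 1.75 (SE 0.38, edgeR adjusted p = 0.0623) and was not called. The Cx3cr1 gene model overlaps other genes, so that its counts are uncertain.

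**Figure D3:**
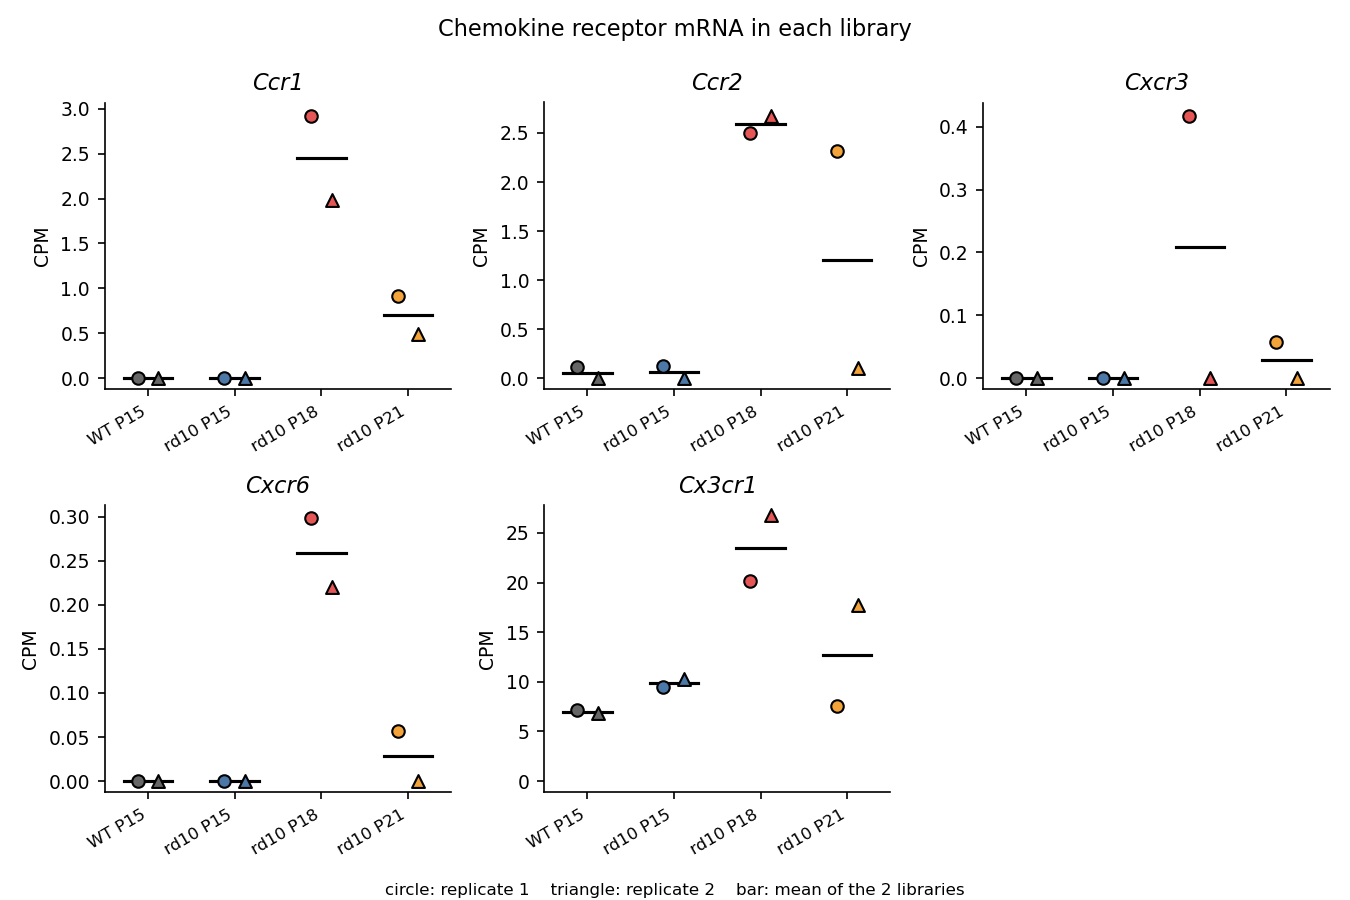
Each panel plots the CPM of 1 receptor in the 8 libraries, with the group on the horizontal axis, a linear vertical axis that differs between panels, circles for replicate 1, triangles for replicate 2 and bars for the mean of the 2 libraries. Ccr1 and Cxcr6 have no counts in the retinas at P15, Ccr2 is at 2.50 and 2.68 CPM at P18 and divided at P21, and Cx3cr1 is highest at P18.

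Other chemokine genes gave a background for the members. Of 15 further CC ligands 6 could be tested and 1 was called at P18 against WT, Ccl28, a chemokine of mucosal epithelia. Ccl28 had 0 counts in WT and 45 and 51 already at rd10 P15, 44 and 64 at P18, and 65 and 10 at P21, and was at least 32.1-fold higher at P18 than in WT (edgeR adjusted p = 0.0432). It was therefore present at rd10 P15, where the secreted members were at or near 0. The call on Ccl28 was lost without either WT library, either rd10 P15 library or rd10 P18 replicate 1, with adjusted p-values of up to 0.216. Ccl7, a further CCR2 ligand between Ccl2 and Ccl12 on chromosome 11, had 99 and 13 counts at P18 and 0 in all other libraries (adjusted p = 0.166).

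Of 13 further CXC and C ligands 5 could be tested and edgeR called 0 at P18 against WT, with 1 at an unadjusted p under 0.05 and 1, Cxcl1, called by DESeq2. The most abundant were Cxcl14 and Cxcl12, homeostatic chemokines of tissue, and Cxcl13, a B cell attractant. Cxcl14 had 77.97 and 83.67 CPM at P18 against 83.26 and 79.80 in WT, a log2 fold change of -0.01 (SE 0.13, adjusted p = 0.976). Cxcl12 and Cxcl13 had log2 fold changes of -0.78 (SE 0.40, adjusted p = 0.370) and -0.49 (SE 0.80, adjusted p = 0.809). Cxcl1, a neutrophil attractant, had 67 and 29 counts at P18, 7 and 5 at P21 and 0 in all retinas at P15 (adjusted p = 0.0972).

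Atypical receptors, which bind chemokines without G protein signalling, and the proteases that act on chemokines gave 0 calls by edgeR and 0 by DESeq2 at P18 against WT among the 4 and 3 genes tested, and 0 had an unadjusted p under 0.05. Adam10 and Adam17, which release CX3CL1 and CXCL16 from the membrane, had log2 fold changes of -0.06 (SE 0.20, edgeR adjusted p = 0.917) and 0.11 (SE 0.17, adjusted p = 0.783). Dpp4, which trims the amino terminus of CXCL10 and other chemokines, stood at -0.15 (SE 0.53, adjusted p = 0.925). Among atypical receptors, Ackr1 had 225 counts in rd10 P15 replicate 1 and 1952 to 4403 in the other libraries, and was low in the same library as Cx3cl1. Ackr1 overlaps Cadm3 on the same strand, which had 8895 to 18792 counts, so that the counts of Ackr1 are uncertain. Ackr3 and Ccrl2 had log2 fold changes of 0.01 (SE 0.53) and 0.92 (SE 1.38).

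The cytokines known to induce these chemokines had few counts. Tnf had 114 and 4 counts at P18 and 5 in rd10 P15 replicate 2, with 0 in the other 5 libraries, and did not pass the filter. Il1a had 0 and 9 counts in WT, 57 and 37 at P18, and 9 and 0 at P21, and Il1b had 3 and 0, 28 and 55, and 3 and 0 in the same groups. Il1b was thus higher in P18 replicate 2, as was Ccl4, and Tnf in replicate 1. Of the 3 cytokines tested edgeR called 0 at P18 against WT, with 0 at an unadjusted p under 0.05 and 0 called by DESeq2 (Il1a adjusted p = 0.438, Il1b adjusted p = 0.287). At P18 against rd10 P15 edgeR also called 0, with 2 at an unadjusted p under 0.05 and 2, Il1a and Il1b, called by DESeq2. Over all genes 2638 of 20457 had an unadjusted p under 0.05 there, and DESeq2 called 2.33% higher. Ifnb1 had 16 counts in P18 replicate 1 and 12 in P21 replicate 1, and Ifng had 12 in P18 replicate 1. Both had 0 in the other libraries, and Il6 had 0 counts in every library.

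Of 11 transcription factors and regulators of the NF-kappaB and interferon pathways, all 11 were tested and edgeR called 2 at P18 against WT, where DESeq2 called 6. Over all genes these tools called 1.15% and 3.51% higher. Irf1, an interferon-induced activator, had 117 and 115 counts in WT, 88 and 82 at rd10 P15, 1526 and 510 at P18, and 694 and 330 at P21. Irf8, a factor of microglia and other myeloid cells, had 81 and 84 counts in WT, 82 and 56 at rd10 P15, 666 and 359 at P18, and 543 and 223 at P21. At P18 against WT the log2 fold change was 2.94 (SE 0.50, edgeR adjusted p = 0.0348) for Irf1 and 2.45 (SE 0.42, adjusted p = 0.0330) for Irf8. Both calls were lost without either WT library or either rd10 P15 library, with adjusted p-values of up to 0.234. For Irf8 the call was also lost without rd10 P18 replicate 1. Like the secreted members other than Ccl4, both genes were higher in replicate 1 than in replicate 2 at P18. The median log2 fold change of the 11 genes was 1.44.

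Markers of cell types that the retina could hold were read beside the chemokines. The summed CPM of 10 microglia markers was 67.2 and 80.4 in WT, 99.8 and 97.8 at rd10 P15, 256 and 243 at P18, and 386 and 187 at P21. Of these 10 markers edgeR called 3 higher at P18 against WT, C1qa and Tmem119 among them, and 2 at P21, and DESeq2 called 7 and 8. Over all genes edgeR called 1.15% higher at P18 and 0.244% at P21. DESeq2 called 3.51% of all genes higher at P18 and 461 of 20858 genes at P21. All 3 edgeR calls at P18 were lost without either WT library, either rd10 P15 library or rd10 P18 replicate 1. The microglial sum was nearly equal in the P18 retinas, where the secreted chemokines differed by 71.1 to 21.8 CPM. The summed CPM of 5 monocyte markers was 0.296 and 0 in WT, 0.254 and 0.0705 at rd10 P15, 13.3 and 3.97 at P18, and 9.27 and 0.210 at P21. Of the 4 monocyte markers tested edgeR called 0 at P18 against WT, with 2 at an unadjusted p under 0.05 and 1, F13a1, called by DESeq2. At P18 and P21 this list was higher in replicate 1, as were the secreted chemokines in sum, whereas in WT the sums of the 2 lists were highest in opposite replicates. At both ages replicate 1 was the library with Y-linked reads, so that sex and replicate cannot be told apart there. Ly6c2, a defining marker of inflammatory monocytes, had 162 and 64 counts at P18 and 230 and 0 at P21. Another list held 6 genes taken as markers of reactive Müller glia, the radial glia of the retina. Which cells made these mRNAs, that of Edn2 included, was not tested. All 6 were called higher at P18 against WT. Their summed CPM was 49.4 and 66.5 in WT, 43.5 and 42.7 at rd10 P15, 972 and 964 at P18, and 375 and 246 at P21. Of these 6, Gfap, Edn2, Osmr and Socs3 kept the call whichever single library was left out. The summed CPM of 8 T and natural killer cell markers was 0.406 and 0 in WT, 2.83 and 3.31 at rd10 P15, 4.05 and 1.83 at P18, and 2.37 and 1.08 at P21. Cd8a, the 1 marker of that list that could be tested, had 11 and 0 counts in WT, 89 and 94 at rd10 P15, 79 and 37 at P18, and 54 and 23 at P21. It was not called by edgeR against WT at rd10 P15 (adjusted p = 0.215) or P18 (adjusted p = 0.212), and DESeq2 called it in both. Gzmb, Nkg7 and Ncr1, genes of cytotoxic cells, had 24, 15 and 12 counts in P18 replicate 1 and 0 in replicate 2, Cd4 had 4 and 21 in these libraries, and Cd3e had 0 in all libraries. Neutrophil markers reached 1.94 CPM in sum, in P18 replicate 1, with Ly6g, Retnlg and Mmp8 at 0 in all libraries. Rod markers, which define the tissue, were lower in rd10 retina. They summed to 40403 and 32407 CPM in WT, 24209 and 25438 at rd10 P15, 21248 and 21787 at P18, and 15642 and 20111 at P21. The part of each cell type in the chemokine values was not tested.

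**Figure D4:**
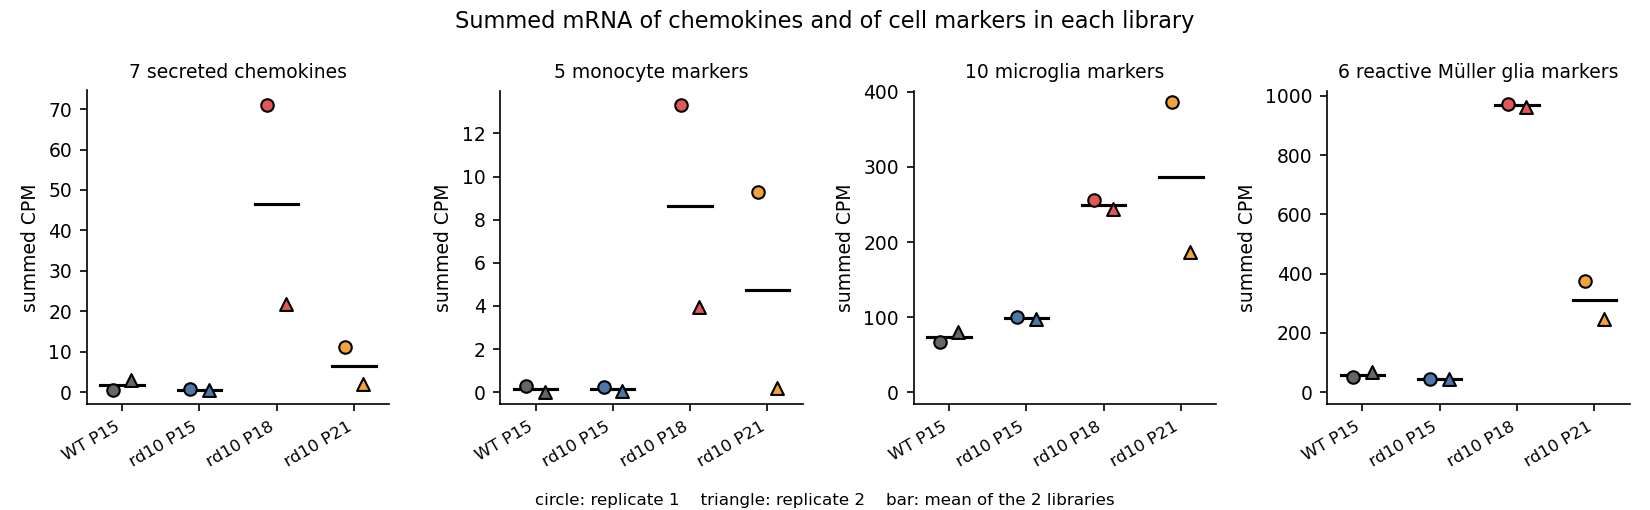
Panels plot the summed CPM in each library, on linear vertical axes that differ between panels. They show the 7 secreted chemokines, 5 monocyte markers, 10 microglia markers and 6 genes taken as reactive Müller glia markers. Circles are replicate 1, triangles replicate 2 and bars the mean of the 2 libraries. The chemokines and the monocyte markers are higher in replicate 1 than in replicate 2 at P18 and P21. The microglia and reactive Müller glia sums are nearly equal at P18 and higher in replicate 1 at P21.

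The genes whose log2 CPM over the 8 libraries was most like that of each member were named as a description, since the libraries share groups and depth. For Ccl12, Socs3, a feedback inhibitor of cytokine signalling, was among the 2 most alike (Pearson r = 0.973, n = 8 libraries), with 1730 and 1355 counts at P18 and 42 to 98 at P15. For Ccl2 the 2 most alike were Lap3 (r = 0.992) and Cyba (r = 0.988), a subunit of the phagocyte oxidase. For Ccl5 they were Cd81 (r = 0.983) and the interferon-induced gene Ifi209 (r = 0.981), which like Ccl5 was highest in P18 replicate 1 and P21 replicate 1, with 167 and 174 counts. For Cxcl10 they were Mlkl (r = 0.979), the effector of necroptosis, and Fes (r = 0.977), and for Cxcl16 Tmem161a (r = 0.975) and Gm6548 (r = 0.973). Cxcl9 was most alike to BC023105 (r = 0.994) and BC147527 (r = 0.992), both with 0 counts in the 4 retinas at P15. For Ccl3 and Ccl4 the first genes were Sebox (r = 0.986) and Tspan4 (r = 0.984). Cx3cl1 was most alike to Wrb (r = 0.986) and Ackr1 (r = 0.982), both of which were also low in rd10 P15 replicate 1, with 722 counts of Wrb against 1919 to 2574 in the other libraries.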

How the data were processed

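Poly(A) mRNA of whole retina was sequenced in 8 libraries by the authors, who deposited raw read counts per Ensembl gene, whole numbers without normalization. The submitters' processing notes name HISAT2, and for the counting tool, the build and the annotation the sources used here name nothing. GENCODE M21 (GRCm38) named 52029 of 57010 identifiers and gave exon lengths, and promoter windows came from RefSeq (GRCm38.p6). Amino acid sequences were not analysed here. All 8 columns were used.

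Counts were tested with edgeR 4.0.16 in R 4.3.3. Genes were kept by filterByExpr (minimum count 10, minimum total 15), scaled by TMM and fitted by the robust quasi-likelihood model to all 8 libraries, with group as the only term and 4 residual degrees of freedom. P-values were adjusted by Benjamini-Hochberg over 20457 genes, and calls needed an adjusted p below 0.05 together with a log2 fold change beyond 1 in either direction. The SE is the log2 fold change divided by the square root of F. The script was tested on simulated data. A group without counts was set at 3 counts for a bound on the fold. Against a group with 1 to 3 counts no fold is given. Log2 CPM for likeness used a prior count of 2, over the tested genes outside the members, and the 2 highest r are named except for Ccl3 and Ccl4, where the first is given.

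Alternatives were DESeq2 1.42.0, RLE factors, library size alone, no filter, no fold threshold, the 4 libraries of a comparison alone, a replicate block and leaving out each library. The members and lists were chosen with earlier results of these data known. From each list, genes called in any comparison were named, and otherwise the 3 with the highest mean CPM. The receptors named other than Ccr1, and Ccl7, Cxcl1, Il6, Ifnb1, Ifng and the single markers of monocytes, lymphocytes and neutrophils, were named after their values were seen. The labels call the libraries biological replicates without naming animals, so p-values measure the spread between these libraries. Some genes of the lists are not reported here.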

Additional observations from a re-analysis of the deposited data

How the results depend on the processing

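Over the alternatives, 552 of 588 values of single members kept their direction and side of the threshold, 7 lost a call, 14 gained one and 15 changed sign. Of members called at P18 against WT (1), DESeq2 gave 3, the replicate block 2 (Ccl2 and Ccl12) and leaving out a library 0 to 2. It gave 0 without WT replicate 1, WT replicate 2 or rd10 P18 replicate 1 and 2 without either P21 library, when Ccl2 was added. At P18 against rd10 P15 (1), DESeq2 gave 4, the 4 libraries alone 0, the replicate block 2 (Ccl2 and Ccl12) and leaving out a library 0 to 2, with 0 without rd10 P15 replicate 1 or P18 replicate 1 and 2 without P21 replicate 1. Without rd10 P15 replicate 2 Ccl12 was lost and Cx3cl1 gained (log2 fold change 2.67, edgeR adjusted p = 0.00959). At P21 against P18 (0), DESeq2 gave 1 and leaving out a library 0 to 1, the latter Ccl12 (-4.38, edgeR adjusted p = 0.0149) without P18 replicate 2. At rd10 P15 against WT (0), leaving out a library gave 0 to 1, with Cx3cl1 called without rd10 P15 replicate 2. At P21 against WT each alternative gave 0. Over all genes, deviations from the group means were nearly uncorrelated between groups, at -0.0245 to 0.0594 over 6 pairs of groups. The highest was between P18 and P21, where replicate 1 had the Y-linked reads in both groups.

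Changes of sign came from leaving out 1 library, and none of them concerned a called value. At rd10 P15 against WT the log2 fold change ranged from -6.84 to 0.53 for Ccl3, -4.91 to 4.47 for Ccl5, -8.02 to 5.28 for Cxcl10, -0.16 to 0.0304 for Cxcl16 and -2.56 to 0.0012 for Cx3cl1. At P21 against WT it ranged from -0.91 to 0.31 for Ccl3 and -4.10 to 4.52 for Ccl4. At P21 against P18 it ranged from -3.50 to 1.22 for Ccl5 and -0.59 to 0.18 for Cxcl16. Values fitted against a group without counts depend on the prior count. Scaling by library size alone moved the median over all genes, in log2 at P18 against WT, from 0.01 to 0.13, and changed no sign among the members.

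The groups held 2 libraries each and the fit had 4 residual degrees of freedom. Counts under 10 in a library, as for most secreted chemokines at P15, limit any order among them, and a count of 0 does not show that a gene was silent.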
